A study of Mus musculus with 10 samples.

Results

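The genes described are 10 alpha and beta tubulin genes, chosen by symbol and not by their values: the beta genes Tubb3, Tubb2a, Tubb2b, Tubb4a, Tubb5 and Tubb6 and the alpha genes Tuba1a, Tuba1b, Tuba1c and Tuba4a. All 10 were found among the 21101 genes of the table, and all 10 passed the filter on low values, which left 15660 genes for testing. Alpha and beta tubulin pair into the dimers from which microtubules are built. The genes of each family encode isotypes, many of which differ most at the acidic carboxy-terminal tail, where motors, associated proteins and modifying enzymes act. In the developing brain Tuba1a, Tubb2a, Tubb2b and Tubb3 are the abundant isotypes of young neurons, and Tubb3 is widely used as a neuronal marker, while Tubb5 is also strongly expressed in dividing progenitors and Tubb6 is found mainly outside neurons. Tubulin transcripts are also subject to autoregulation, in which the factor TTC5 recognises the start of the nascent tubulin peptide and triggers decay of the mRNA when free dimers are in excess.

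RNA was sequenced from cultures of mouse neural stem cells that were all p53-null and all transduced with IDH1(R132H), the mutant isocitrate dehydrogenase of gliomas. Atrx encodes a chromatin remodeller. It was intact in a pair of control lines (Control NSC#1, Control NSC#2) and deleted in 3 lines (mA16d#4, mA19d#4, mA19d#7). Every line gave 1 library from proliferating cells, kept with the growth factors EGF and bFGF (20 ng/ml), and 1 from cells differentiated for 8 days in B27-containing neural basal medium without growth factors. This gives 4 groups of 2, 2, 3 and 3 libraries, and values are listed in the order in which the lines are named above. Neither the origin of the lines nor the way Atrx was deleted is given in the sources used here, so the p-values measure only the spread between these lines. The column names begin with the same number for all control libraries and with another for all Atrx-deleted libraries. What these numbers stand for is not given, so an effect tied to them cannot be told apart from that of Atrx deletion. The names mA19d#4 and mA19d#7 share a stem, and their proliferating libraries were each other's closest match across genes (Spearman's rho 0.976). Whether the 3 lines are independent is not given.

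Levels are TPM, transcripts of a gene per fixed number of transcripts, a unit scaled for transcript length, so levels of different genes can be compared. The 21101 values of any library are the same set in another order, as quantile normalisation leaves them, so the depth is unknown, a change in total RNA cannot be seen, and different genes or libraries can share exactly the same value. In bulk cultures fewer cells of a type and less RNA per cell cannot be told apart. Atrx RNA was lower in every Atrx-deleted library (42.8 to 74.0 TPM) than in every control library (127 to 163 TPM). The library labelled mA19d#7 in differentiation medium went against the other lines for several members below. Its correlation across genes with the proliferating library of its own label (Spearman's rho 0.926) was the lowest of the 5 lines (0.932 to 0.960 in the others), and its closest match was the proliferating mA16d#4 library (0.957). A closest match in another line was found for all 10 libraries, and the differentiated mA19d#4 library also matched a proliferating one best (0.960). The main fitted differences that rest on the differentiated mA19d#7 library are given with and without it. The stem cell genes Sox2 (at least 364 TPM) and Nes (at least 245 TPM) were present in all 10 libraries. Neuronal markers were uneven: Map2 was at 358 to 903 TPM, Gap43 at 17.0 to 58.8 TPM and Dcx at 2.28 to 53.0 TPM, while Rbfox3 (NeuN) reached 12.7 TPM at most and Stmn2 stayed below 1 TPM in every library.

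The coding ends are shown because the isotype tail is where many members of a family differ, though not every pair does: the ends of Tubb2a and Tubb2b differ only at synonymous codons. These are the last 60 coding bases before the stop codon, 5′ to 3′, from GENCODE M21 transcripts (GRCm38), for 5 beta genes and for Tuba4a. Capitals mark in-frame codons for the acidic residues glutamate and aspartate.
Tubb5: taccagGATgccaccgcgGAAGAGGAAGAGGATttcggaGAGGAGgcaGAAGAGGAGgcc
Tubb2b: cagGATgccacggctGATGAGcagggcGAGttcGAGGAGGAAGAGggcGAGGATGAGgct
Tubb2a: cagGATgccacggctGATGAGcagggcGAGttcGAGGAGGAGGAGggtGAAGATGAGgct
Tubb3: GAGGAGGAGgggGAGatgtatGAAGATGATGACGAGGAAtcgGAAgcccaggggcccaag
Tubb4a: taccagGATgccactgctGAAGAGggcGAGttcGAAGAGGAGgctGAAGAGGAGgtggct
Tuba4a: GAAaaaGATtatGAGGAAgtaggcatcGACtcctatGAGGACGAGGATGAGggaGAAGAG

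Of the 20 codons shown, 10 were acidic in Tubb4a, 11 in Tubb5, Tubb2b, Tubb2a and Tubb3, and 12 in Tuba4a.

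Tuba1a, Tuba1b and Tuba1c lie close together on chromosome 15 (chr15:98931425-98934565 for Tuba1b to chr15:99029891-99038110 for Tuba1c, GRCm38), and Tubb2a (chr13:34074274-34078007) and Tubb2b (chr13:34126748-34130466) are neighbours on chromosome 13. Tuba4a is on chromosome 1 (chr1:75214228-75219865), and each of the 10 genes has 4 exons. How far a member's value is its own depends on how much of its transcript it shares with other genes. Coding sequences were 98.3% identical between Tuba1a and Tuba1b, 98.4% between Tuba1b and Tuba1c, 97.5% between Tuba1a and Tuba1c, and 96.5% between Tubb2a and Tubb2b. The remaining pairs within a family had at most 86.6%, and alpha and beta genes between 58.5% and 61.6%. Of all 50-base windows of the transcript, 27.1% in Tuba1a, 26.2% in Tuba1b and 39.0% in Tuba1c occurred in no other gene, against 50.4% in Tubb2a and 60.7% in Tubb2b. In Tubb3, Tubb4a, Tubb5, Tubb6 and Tuba4a at least 98.9% of windows were their own. The handling of reads that match several genes is not given in the sources used here, so the split among Tuba1a, Tuba1b and Tuba1c and between Tubb2a and Tubb2b is uncertain.

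**Figure D1:**
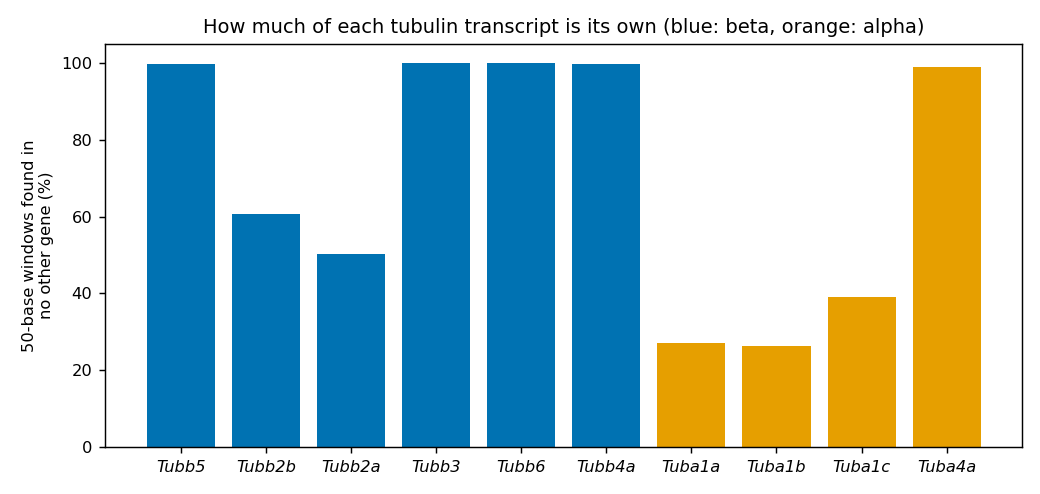
Share of the 50-base windows of each tubulin transcript that occur in no transcript of another gene (y axis, percent), for beta genes (blue) and alpha genes (orange). Tuba1a, Tuba1b and Tuba1c have 26.2% to 39.0% of their windows to themselves, Tubb2a and Tubb2b 50.4% and 60.7%, and the other 5 genes at least 98.9%.

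Tuba1a was the most abundant member in all 4 groups, with means from 2449 to 4538 TPM. In control lines in proliferation medium it was followed by Tubb5 (1720 TPM) and Tubb2b (1647 TPM), which overlapped, and then by Tuba1b (514 TPM) and Tubb2a (486 TPM), which overlapped as well. Tubb3 (106 TPM) came next, above Tubb6 (75.7 TPM) and Tuba1c (73.5 TPM), which overlapped. Tubb4a (37.4 TPM) and Tuba4a (2.80 TPM) were lowest. After differentiation of the control lines no neighbours in the order overlapped, and it ran Tuba1a, Tubb2b (2550 TPM), Tubb2a (1125 TPM), Tubb5 (989 TPM), Tuba1b (438 TPM), Tubb3 (148 TPM), Tubb4a (94.9 TPM), Tubb6 (24.0 TPM), Tuba1c (20.0 TPM) and Tuba4a (18.3 TPM). In the Atrx-deleted lines the ranges of neighbours overlapped for 5 of 9 neighbouring pairs in proliferation medium and for 6 of 9 in differentiation medium.

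**Figure D2:**
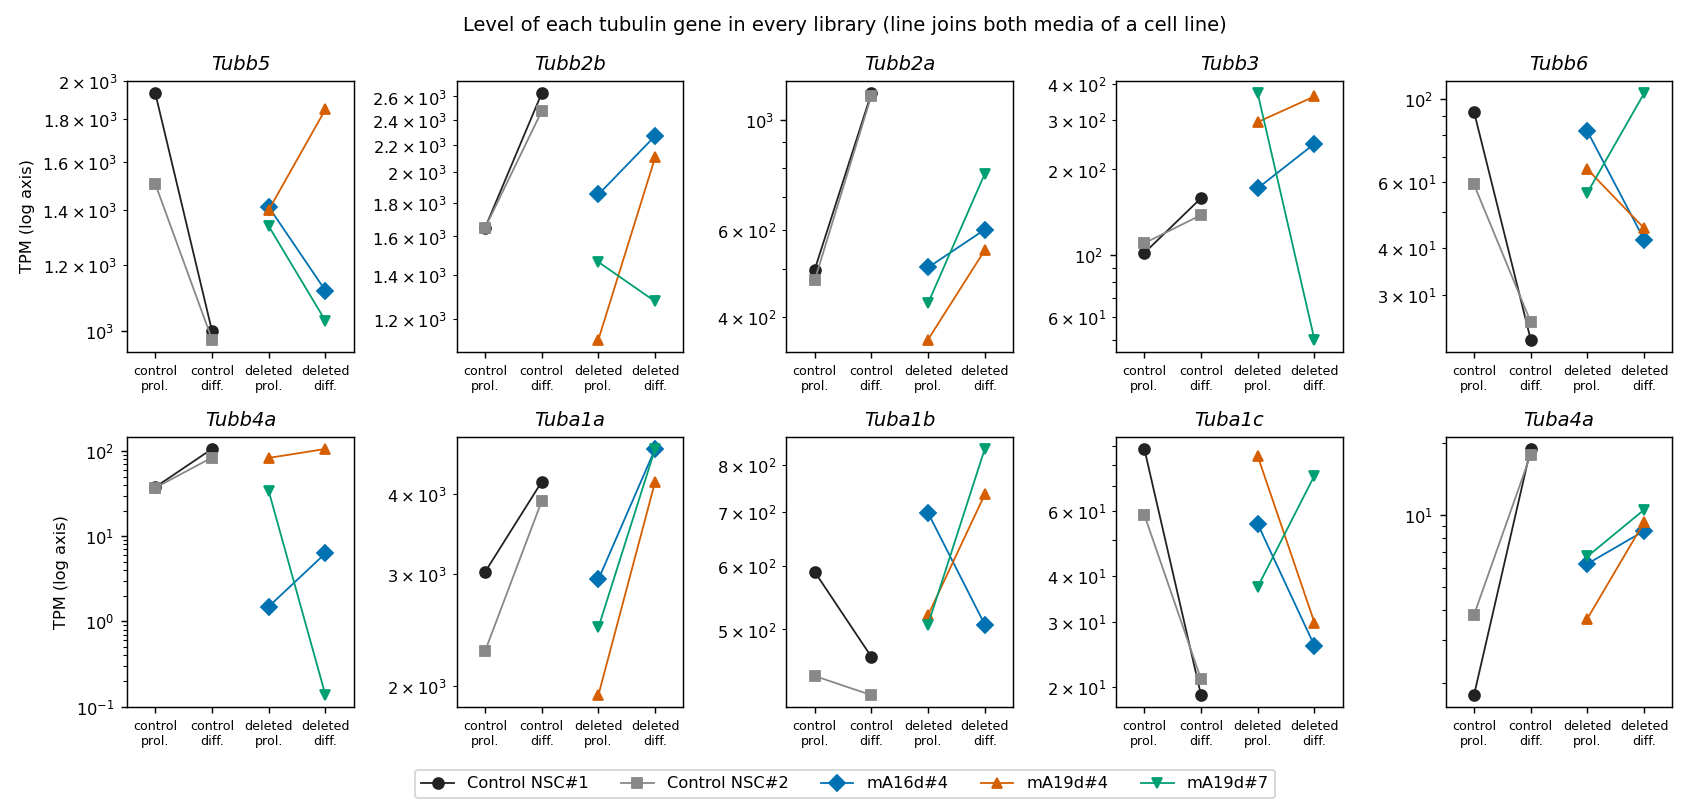
TPM of each tubulin gene (y axes, log scale, a separate range for each gene) in control and Atrx-deleted ("deleted") lines in proliferation (prol.) and differentiation (diff.) medium; each point is 1 library and a line joins both media of a cell line. The green mA19d#7 line moves against most other lines for Tubb3, Tubb4a, Tubb6 and Tuba1c.

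Differentiation of the control lines was accompanied by a rise of Tubb2a and Tuba4a. Of the 10 members, 2 rose and none fell at a limma adjusted p below 0.05, where 4.51% of all tested genes passed. By direction 1.95% of all genes rose and 2.56% fell. At an unadjusted p below 0.05, 5 members passed, against 19.9% of all genes. The libraries of both media did not overlap for 9 members, all but Tuba1b, against 61.3% of all genes. Of these 9, 6 lay higher (29.6% of all genes) and 3 lower (31.6%). The median log2 difference was 0.56 over the members and -0.0084 over all tested genes.

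Tubb2a was at 498 and 474 TPM in the control lines in proliferation medium and at 1131 and 1119 TPM in differentiation medium. Both control lines therefore rose to nearly the same level, 2.31-fold (log2 difference 1.21, SE 0.230, limma adjusted p = 0.0199). Its near neighbour Tubb2b, the more abundant of the pair, was at 1647 TPM in both control lines before and at 2628 and 2471 TPM after differentiation. That difference did not pass (log2 0.63, 95% interval -0.15 to 1.40, limma adjusted p = 0.369). Reads shared between both genes could move values from one to the other. The summed level of both rose in each control line, since each gene was higher in both.

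Tuba4a, an alpha isotype of mature neurons and muscle, had the lowest mean of the members in all 4 groups, although Tubb4a was lower in 3 of the Atrx-deleted libraries. Tuba4a was at 1.78 and 3.83 TPM in the control lines in proliferation medium and at 18.8 and 17.8 TPM after differentiation (log2 difference 2.40, SE 0.374, limma adjusted p = 0.00993). The libraries did not overlap, and its transcript is almost wholly its own. Both calls rested on the control libraries. The call of Tubb2a was lost with any 1 of the 4 control libraries left out (limma adjusted p from 0.115 to 0.182). That of Tuba4a was lost without the first control library in proliferation medium (0.144), the first in differentiation medium (0.0907) or the second in differentiation medium (0.0712). With a control line left out whole, neither passed (adjusted p from 0.148 to 0.618). The log2 difference stayed between 1.17 and 1.24 for Tubb2a and between 1.96 and 2.84 for Tuba4a with a library or line left out.

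Tubb6 and Tuba1c lay lower after differentiation of the control lines, without passing the test. Tubb6, a minor beta isotype of non-neuronal cells, was at 92.4 and 59.1 TPM before and 22.7 and 25.4 TPM after (log2 -1.58, 95% interval -2.46 to -0.70, limma adjusted p = 0.0514). Tuba1c, a widely expressed alpha isotype, was at 88.5 and 58.6 TPM before and 19.0 and 21.0 TPM after (log2 -1.80, 95% interval -2.88 to -0.72, limma adjusted p = 0.0664). In neither gene did the libraries of the media overlap. Without the library labelled mA19d#7 in differentiation medium, which is in neither compared group but adds to the shared estimate of spread, the adjusted p was 0.00683 for Tubb6 and 0.0146 for Tuba1c. With the cell line as a random replicate block it was 0.0450 for Tubb6 and 0.0590 for Tuba1c, and as a fixed replicate block 0.0862 and 0.118. Tubb6 also passed with a filter of 5 TPM, and without either of the other Atrx-deleted libraries in differentiation medium (limma adjusted p = 0.0473 and 0.0442). Tuba1c did not pass with that filter or without either of those libraries. Without any 1 of the Atrx-deleted libraries in proliferation medium neither gene passed (limma adjusted p from 0.0614 to 0.0853). With a library or line left out the log2 difference ranged from -1.98 to -1.19 for Tubb6 and from -2.16 to -1.44 for Tuba1c. With the control libraries fitted alone 8 of the 10 members passed, all but Tuba1a and Tuba1b. In that fit 2805 genes passed in all, against 706 in the main fit.

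Tubb5, with Tubb2b 1 of the 2 most abundant beta genes of the proliferating cells, was at 1935 and 1504 TPM in the control lines before and 1000.1 and 977 TPM after differentiation (log2 -0.79, 95% interval -1.46 to -0.11, limma adjusted p = 0.178). Tuba1a was at 3019 and 2268 TPM before and 4185 and 3902 TPM after (log2 0.63, adjusted p = 0.367 by limma). Tuba1b was at 590 and 438 TPM before and 462 and 414 TPM after, with overlapping libraries. Tubb3 was at 101 and 110 TPM before and 158 and 138 TPM after (log2 0.48, 95% interval -1.12 to 2.09, limma adjusted p = 0.779). Tubb4a, a beta isotype of neurons and of myelinating oligodendrocytes, was at 37.7 and 37.0 TPM before and 106 and 83.9 TPM after (log2 1.31, 95% interval -2.85 to 5.48). The spread behind these intervals is estimated over all 4 groups, and Tubb3 and Tubb4a varied most among the Atrx-deleted lines.

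Cell cycle markers and some astrocyte markers moved in the same comparison. Of 12 cell cycle markers 9 fell and none rose in the control lines, and their summed level went from between 923 and 1429 TPM to between 285 and 290 TPM. Of 10 astrocyte markers 4 rose, and their summed level went from between 2083 and 2834 TPM to between 10111 and 11011 TPM, of which Apoe made up 5423 to 6640 TPM. The other 3 that rose were Slc1a2, Slc1a3 and Slc4a4, while 3 of the 10 (Gfap, Aldh1l1 and S100b) had negative differences that did not pass. Of 11 tested neuronal markers 1 rose (Elavl3), with a summed level from 671 to 676 TPM before and from 729 to 789 TPM after. Of 11 tested oligodendrocyte lineage markers none passed, with a summed level between 4653 and 5178 TPM in the control libraries. Their part in the tubulin differences was not tested.

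In the Atrx-deleted lines none of the 10 members passed between media by limma, where 0.083% of all genes passed, and 3 members had an unadjusted p below 0.05 (14.8% of all genes). The libraries of the media did not overlap for Tubb2a, Tuba1a and Tuba4a, 3 of 10 members against 16.5% of all genes, and each of these was higher in differentiation medium (8.65% of all genes). The median log2 difference of the members was 0.075, and 0.011 over all tested genes.

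Tuba1a was at 2941, 1935 and 2471 TPM in the Atrx-deleted lines before and 4715, 4185 and 4715 TPM after differentiation (log2 0.91, 95% interval 0.28 to 1.54, limma adjusted p = 0.197). Tubb2a was at 504, 360 and 427 TPM before and 600.5, 546 and 778 TPM after (log2 0.57, 95% interval 0.15 to 0.99, limma adjusted p = 0.215). Tuba4a was at 6.25, 3.70 and 6.71 TPM before and 8.57, 9.32 and 10.5 TPM after (log2 0.70, 95% interval 0.03 to 1.38, limma adjusted p = 0.317). As their libraries did not overlap between media in either set of lines, these 3 genes were higher after differentiation in 5 of 5 lines. That count follows from the choice of genes. The share of all tested genes that moved alike in 5 of 5 or 4 of 5 lines was not determined. Set beside the control lines, the increase of Tuba4a was 1.70 smaller on the log2 scale in the Atrx-deleted lines (95% interval -2.77 to -0.62), and this difference of responses did not pass (limma adjusted p = 0.470).

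The lines did not move together for the other members. For Tubb3, Tubb4a, Tubb6 and Tuba1c the line labelled mA19d#7 went against the other 4. Tubb3 was at 172, 294 and 372 TPM in the Atrx-deleted lines before and 247, 363 and 50.1 TPM after differentiation. It was therefore higher after differentiation in 4 of 5 lines, by 0.30 to 0.64 on the log2 scale, and fell by 2.87 between the libraries labelled mA19d#7. Tubb4a was at 1.49, 83.1 and 33.8 TPM before and 6.29, 106 and 0.136 TPM after. It was likewise higher in 4 of 5 lines, by 0.34 to 1.55, and 4.94 lower on the log2 scale in the library labelled mA19d#7. Tubb6 was at 81.9, 64.8 and 56.1 TPM before and 42.1, 45.1 and 103 TPM after, and Tuba1c at 55.3, 84.5 and 37.3 TPM before and 25.8, 29.9 and 74.9 TPM after. Both were lower in 4 of 5 lines, and higher by 0.87 (Tubb6) and 0.99 (Tuba1c) between the libraries labelled mA19d#7.

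**Figure D3:**
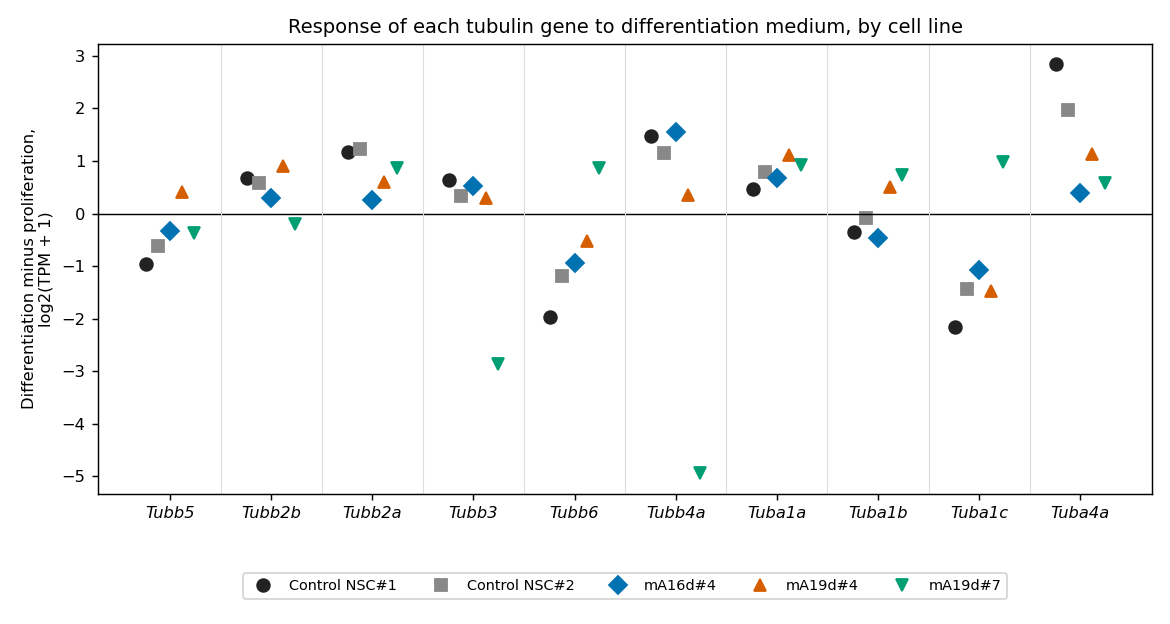
Difference between differentiation and proliferation medium in log2(TPM + 1) (y axis) for each tubulin gene and cell line, 1 point a line. Tubb2a, Tuba1a and Tuba4a lie above 0 in all 5 lines; for Tubb3 and Tubb4a the green mA19d#7 points lie at -2.87 and -4.94 while the other lines lie above 0.

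Without that library the difference between media in the Atrx-deleted lines changed its sign for Tubb3, from -0.68 to 0.17, and for Tubb4a, from -1.01 to 0.52, and went from -0.20 to -0.61 for Tubb6 and from -0.52 to -0.98 for Tuba1c (limma adjusted p = 0.788, 0.869, 0.161 and 0.119). Tubb5 was at 1411, 1400 and 1338 TPM before and 1119, 1851 and 1029 TPM after, lower in all lines but mA19d#4. Tubb2b was at 1851, 1119 and 1464 TPM before and 2268, 2104 and 1277 TPM after, higher in 4 of 5 lines and 0.20 lower on the log2 scale in the library labelled mA19d#7. Tuba1b was at 698, 521 and 507 TPM before and 507, 736 and 838 TPM after, lower in 3 lines and higher in mA19d#4 and mA19d#7. The summed level of 12 neuronal markers was 449 TPM in the same library, against 1023 and 889 TPM in the other Atrx-deleted lines in differentiation medium. Most of that sum is Map2, at 358 to 903 TPM in these 3 libraries. Not all neuronal markers lay low there. Nefl was at least 2.60 TPM and Nefm at least 7.46 TPM in each of the 3. In the control libraries they reached at most 0.0227 and 1.46 TPM. Dcx was at least 16.7 TPM and Syp at least 15.7 TPM in each of the 3. Others went down to low values among the 3: Elavl4 spanned 1.31 to 28.5 TPM, Elavl3 1.35 to 9.34 TPM and Rbfox3 0.0488 to 1.95 TPM. In the differentiated control libraries these were at 27.1 to 29.7, 13.4 to 20.1 and 9.88 to 12.7 TPM. As ranges over the 3 libraries are given, a lowest value need not be that of the library labelled mA19d#7. For Tubb4a, markers of the oligodendrocyte lineage are the other measure at hand. Their summed level was 2096 TPM in the same library, the lowest of all 10, against 2989 TPM in mA16d#4 and 5883 TPM in mA19d#4 after differentiation, the order in which Tubb4a stood. In proliferation medium it was 3904, 4255 and 3567 TPM in the lines in their usual order, where Tubb4a was lowest in mA16d#4. The part of these cell types in the tubulin values was not tested.

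No interaction of medium and Atrx deletion passed for a member (limma adjusted p from 0.470 to 0.941), where 0.00639% of all genes passed, and 2 members, Tuba4a and Tubb6, had an unadjusted p below 0.05 (7.02% of all genes). The interaction of Tubb6 was 1.39 on the log2 scale (95% interval 0.25 to 2.52), the direction of a smaller decrease in the Atrx-deleted lines, and 0.98 without the library labelled mA19d#7 in differentiation medium.

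Between Atrx-deleted and control lines in proliferation medium none of the 10 members passed by limma, where 0.46% of all genes passed, and 1 member, Tuba4a, had an unadjusted p below 0.05 (13.7% of all genes). Libraries did not overlap for Tubb3 and Tubb5, 2 of 10 members against 38% of all genes. Of these Tubb3 lay higher (17.8% of all genes) and Tubb5 lower (20.2%). The median log2 difference of the members was -0.16, and -0.017 over all genes. Tubb3 was higher in each Atrx-deleted line than in either control line, with means of 279 ± 101 TPM (SD, n = 3) against 106 ± 5.90 TPM (SD, n = 2). The log2 difference was 1.33 (95% interval -0.14 to 2.79, limma adjusted p = 0.409), which did not pass. The difference of Tuba4a was 0.81 (95% interval 0.05 to 1.57, limma adjusted p = 0.339), that of Tubb5 was -0.30 (95% interval -0.92 to 0.31), and those of the remaining genes other than Tubb4a lay between -0.36 and 0.16. Tubb4a spanned 1.49 to 83.1 TPM among the Atrx-deleted lines around a control level of 37.4 ± 0.458 TPM (SD, n = 2), and no direction can be read from it.

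In differentiation medium again no member passed between Atrx-deleted and control lines by limma, where 2.89% of all genes passed, and 4 members had an unadjusted p below 0.05 (20.2% of all genes). The libraries did not overlap for 7 of 10 members, against 36.3% of all genes, with 3 lower (18.1% of all genes) and 4 higher (18.2%). The median log2 difference was 0.16 over the members and 0.016 over all genes. Tubb2a (641 ± 122 against 1125 ± 8.27 TPM, SD, n = 3 and n = 2), Tubb2b (1883 ± 531 against 2550 ± 111 TPM) and Tuba4a (9.47 ± 0.973 against 18.3 ± 0.701 TPM) lay lower in every Atrx-deleted line. Tubb5 (1333 ± 451 against 989 ± 16.5 TPM), Tubb6 (63.6 ± 34.6 against 24.0 ± 1.85 TPM), Tuba1b (694 ± 169 against 438 ± 33.9 TPM) and Tuba1c (43.5 ± 27.2 against 20.0 ± 1.41 TPM) lay higher in every Atrx-deleted line. The members that lay lower here include both that rose in the control lines, and both comparisons share the control libraries in differentiation medium.

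The smallest adjusted p was that of Tubb2a (log2 -0.83, 95% interval -1.29 to -0.36, limma adjusted p = 0.0661), followed by Tubb6 (log2 1.24, 95% interval 0.44 to 2.04, limma adjusted p = 0.0938). Without the library labelled mA19d#7 in this medium Tubb2a passed (log2 -0.97, limma adjusted p = 0.0239), and Tubb6 had a log2 difference of 0.83 (adjusted p = 0.0733). Among the Atrx-deleted lines that library held the Tubb2a value nearest to the control lines (778 TPM), so leaving it out widened the difference. The genes passing in all then went from 452 to 939. Over all fits with a library or line left out the log2 difference of Tubb2a ranged from -0.97 to -0.72. Leaving out the differentiated mA19d#7 library moved Tubb3 from 0.16 to 1.01 (limma adjusted p = 0.0961) and Tuba1c from 0.93 to 0.46. For Tubb4a the difference was -3.31 (95% interval -7.12 to 0.49, limma adjusted p = 0.310) with the library and -1.77 without it. Of 12 cell cycle markers 8 rose and none fell in the same comparison. Their summed level was 562 to 1267 TPM in the Atrx-deleted and 285 to 290 TPM in the control libraries. Of 10 astrocyte markers 2 fell, with summed levels of 3986 to 7450 and 10111 to 11011 TPM. Of 11 tested oligodendrocyte lineage markers 3 fell, among them Pdgfra and Bcas1, and of 11 tested neuronal markers Nefl rose and Rbfox3 fell. The part of these in the tubulin values was not tested.

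**Figure D4:**
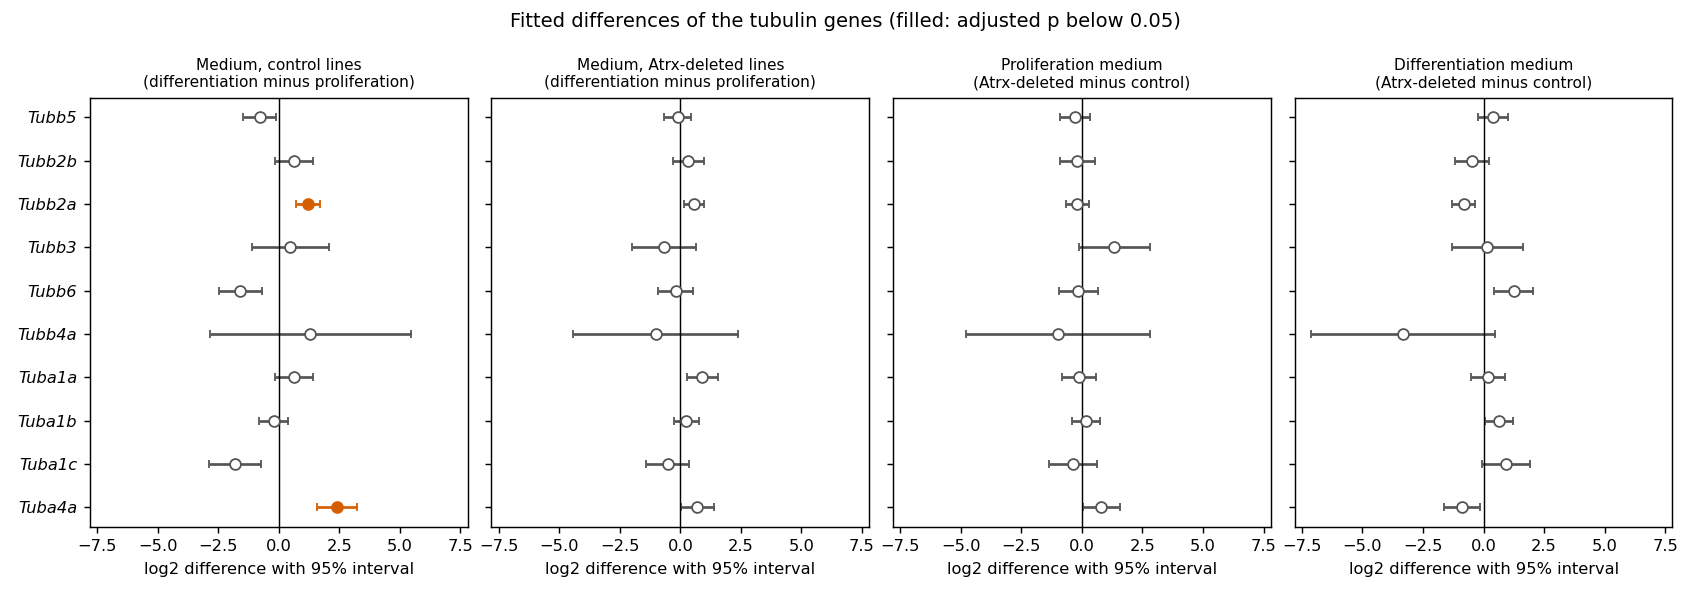
Fitted log2 differences of the tubulin genes (x axes, on the log2(TPM + 1) scale, bars give 95% intervals) for the medium in control and in Atrx-deleted lines and for Atrx deletion in each medium; filled points passed an adjusted p of 0.05. Only Tubb2a and Tuba4a in the control lines are filled, and the bars of Tubb4a are the widest.

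The isotype composition gives the share of each gene in the summed TPM of the listed genes of its family, called its pool here. The beta pool leaves out Tubb4b, which was at 225 to 438 TPM. With all beta tubulin genes in the sum, Tubb5 held 41.8% and 36.7% in the control lines in proliferation medium. In proliferation medium Tubb5 and Tubb2b made up most of the beta pool of the control lines, 44.9% and 39.3% for Tubb5 and 38.2% and 43.0% for Tubb2b. After differentiation the share of Tubb5 was 19.8% and 20.3%, that of Tubb2b 52.1% and 51.3%, and that of Tubb2a 22.4% and 23.2%, up from 11.6% and 12.4%. In the Atrx-deleted lines after differentiation Tubb5 held 26.1%, 36.9% and 31.8%, more than in either control line. Tubb3 made up 2.35% and 2.86% of the beta pool in the control lines in proliferation medium and 4.27%, 8.86% and 10.1% in the Atrx-deleted lines. In differentiation medium its share was 3.14% and 2.87% against 5.76%, 7.23% and 1.55%. Tuba1a held 76.1% to 89.7% of the alpha pool in all 10 libraries. These shares carry the uncertain split of shared reads among Tuba1a, Tuba1b and Tuba1c and between Tubb2a and Tubb2b.

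Shares differed between Atrx-deleted and control lines without overlap for 3 of 10 members in proliferation medium and 4 of 10 in differentiation medium. No such rate exists for shares of all genes. The levels of 38% and 36.3% of all tested genes did not overlap in these comparisons, so the counts are near that rate. Shares within a family also depend on each other. In two-sided exact permutation tests over lines no share passed, and 2 lines against 3 cannot give a p below 0.1. The smallest adjusted value over the 20 tests was 0.533. Summed over the members, tubulin RNA made up 0.588% to 0.803% of all TPM in proliferation medium and 0.890% to 1.00% in differentiation medium, higher after differentiation in 5 of 5 lines. The ratio of summed alpha to summed beta TPM of the listed genes, without Tubb4b, was 0.722 to 0.920 in proliferation medium. After differentiation it was 0.928 and 0.905 in the control lines and 1.23, 0.989 and 1.74 in the Atrx-deleted lines, highest in the library labelled mA19d#7.

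**Figure D5:**
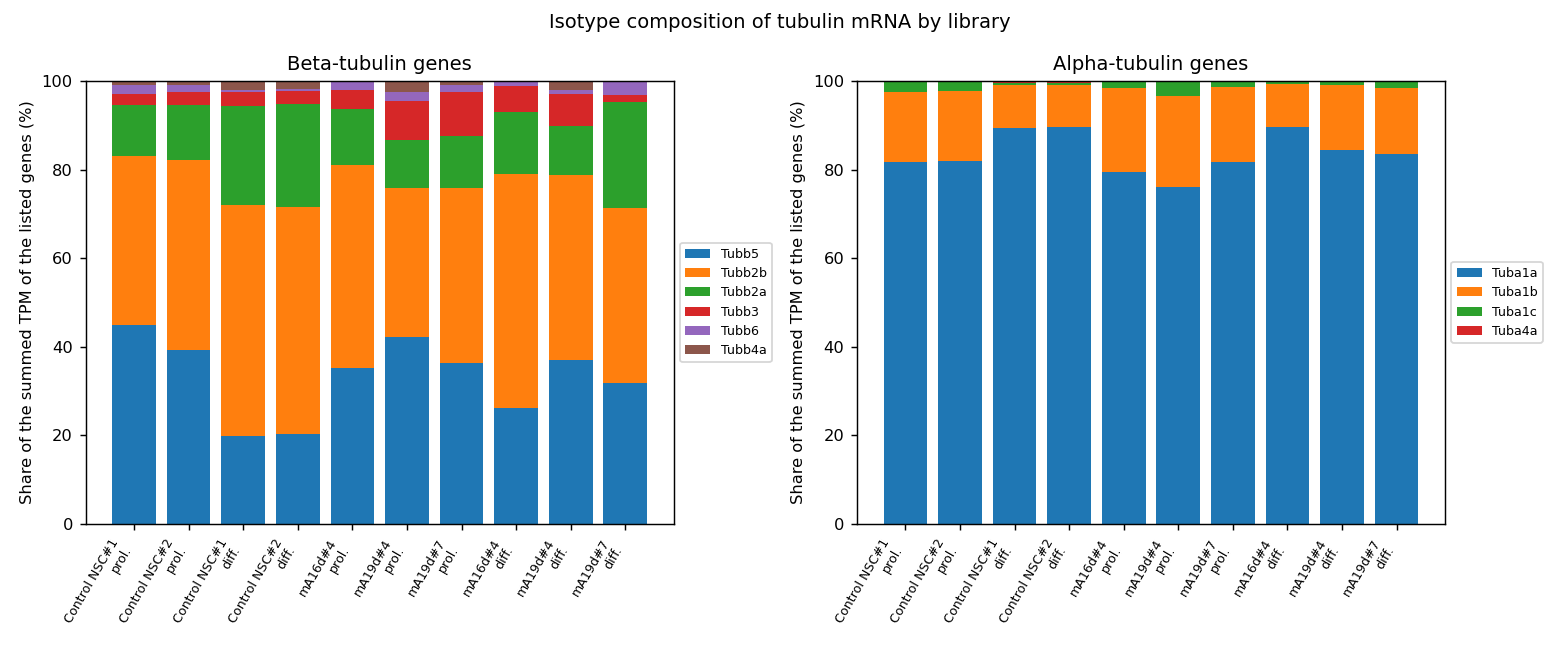
Share of each gene in the summed TPM of the listed beta (left) and alpha (right) tubulin genes (y axes, percent) in each of the 10 libraries. The Tubb5 share falls to 19.8% and 20.3% in the differentiated control lines and lies between 26.1% and 36.9% in the differentiated Atrx-deleted lines.

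Promoters are shown for Tubb2a, which rose in the control lines, and for Tuba1c, which lay lower there. The windows are the 250 bases before the RefSeq start site (GRCm38.p6), chr13:34078009-34078258 on the minus strand for Tubb2a and chr15:99029641-99029890 on the plus strand for Tuba1c, 5′ to 3′. Capitals mark the TATA motif (TATAAA), the GC box (GGGCGG) and the CCAAT box on either strand.
Tubb2a: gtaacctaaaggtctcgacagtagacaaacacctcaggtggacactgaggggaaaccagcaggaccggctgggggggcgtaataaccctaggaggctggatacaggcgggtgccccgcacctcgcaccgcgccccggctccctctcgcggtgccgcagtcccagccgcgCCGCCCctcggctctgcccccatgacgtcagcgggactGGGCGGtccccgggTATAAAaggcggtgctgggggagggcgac
Tuba1c: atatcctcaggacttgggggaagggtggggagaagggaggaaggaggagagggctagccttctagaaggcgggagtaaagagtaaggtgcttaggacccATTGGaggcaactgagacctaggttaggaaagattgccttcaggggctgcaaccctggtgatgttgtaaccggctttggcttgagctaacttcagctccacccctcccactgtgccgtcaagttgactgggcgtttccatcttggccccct

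The Tubb2a window held the TATA motif, with its first base 29 bases before the start, and the GC box at 2 places. The Tuba1c window held the CCAAT box on the opposite strand and neither of the others. Of 32851 promoters of this length 12.4% held the TATA motif, 32.7% the GC box and 33.8% the CCAAT box. Among the 8 members with a promoter in the table, the TATA motif was found for Tubb2a alone, the GC box for Tubb3, Tubb2a, Tuba1a, Tuba1b and Tuba4a, and the CCAAT box for Tubb3, Tubb5, Tuba1a and Tuba1c. The motif TTTGAA, part of the element that some cell cycle genes carry, was found in none of the 8 (16.0% of all promoters).

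Of the 10 further tubulin genes listed, 6 were tested and none passed in any of the 5 comparisons. Tubb4b, a beta gene of most tissues, was the abundant one at 225 to 438 TPM, with log2 differences of 0.39 (medium, control lines) and -0.18 (Atrx deletion in differentiation medium). The 21 genes of tubulin folding, which encode the chaperonin TRiC, prefoldin and the tubulin cofactors, included 1 that fell in the differentiating control lines, the chaperonin regulator gene Pdcl3 (log2 -0.68, limma adjusted p = 0.0459), and none that passed elsewhere. Their median log2 difference in the differentiating control lines was -0.17, and 4.51% of all tested genes passed there. Of 16 tested genes of tubulin-modifying enzymes and of 11 genes of the gamma-tubulin ring complex, which nucleates microtubules, none passed in any comparison. The autoregulation factors Ttc5 and Scaper had log2 differences between -0.26 and 0.034 in the 4 pairwise comparisons, and neither passed.

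Among genes of microtubule dynamics, 6 passed between media in the control lines, where 4.51% of all tested genes passed. In the differentiating control lines Mapt, which encodes tau, rose (log2 1.04, SE 0.238, limma adjusted p = 0.0384), 1 of 16 tested associated proteins of neurons. Of 18 associated proteins of most cells, 2 fell, the mitotic genes Gtse1 (-2.77) and Tpx2 (-2.53). Of 9 severing and depolymerising proteins, 3 fell, the kinesins Kif2c (-2.88) and Kif18a (-2.05) and the AAA ATPase gene Fignl1 (-1.77). In differentiation medium the same 5 genes rose in the Atrx-deleted over the control lines, by 2.03 (Gtse1), 1.98 (Tpx2), 2.54 (Kif2c), 1.69 (Kif18a) and 1.93 (Fignl1). Of all tested genes 2.89% passed in that comparison. Both comparisons share the control libraries in differentiation medium, and Gtse1, Tpx2, Kif2c and Kif18a act in mitosis. None of these lists held a gene that passed in proliferation medium, between media in the Atrx-deleted lines or in the interaction.

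Likeness of pattern was measured as the root mean square difference of log2(TPM + 1), centred on each gene's mean, over the 10 libraries. For Tubb3, whose own root mean square around its mean was 0.862, the nearest genes included Myt1 (0.364), Ldhb (0.403), Mpg (0.426) and Lypd1 (0.455). For Tuba4a (root mean square 0.847) they were Nacc2 (0.295), Bcl2 (0.308), Nadk2 (0.333), Syde2 (0.344) and Otud1 (0.353). For Tubb4a, the beta member of widest range (root mean square 2.24), the nearest were Ednrb (0.779), Elovl2 (0.847), Paqr7 (0.865), Csmd2 (0.891) and B3gnt5 (0.911). The 10 libraries come from 5 lines, and the ranking describes these libraries. It was not repeated without the differentiated mA19d#7 library, in which Tubb3 (50.1 TPM) and Tubb4a (0.136 TPM) were at their lowest.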

How the data were processed

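RNA sequencing values of 10 libraries were taken from the table the authors deposited, in which values are log2 of TPM, read so from the values: they reach down to -8 and, back-transformed, add up to 997524 per library. Per the submitters' processing notes reads were aligned with STAR to mm10. The version, the annotation and the quantification tool were not stated in the sources used here. All libraries hold the same sorted values, so they had been quantile-normalised. Linear TPM had been assumed, so values were back-transformed and the planned test kept.

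The 15660 genes that reached 1 TPM in 2 or more libraries were tested. One limma 3.58.1 fit (R 4.3.3, mean-variance trend) of log2(TPM + 1) held 4 group means over all 10 libraries, with 6 residual degrees of freedom. On this scale a fold change of a low gene is understated. P-values were adjusted after Benjamini and Hochberg across all 15660 genes, with a threshold of 0.05. The fit was tested on simulated data. The same cell line was sampled in both media, so the line was also used as a replicate block. Deviations from the group mean correlated at 0.0624 (control lines), 0.159 (mA16d#4), 0.404 (mA19d#4) and -0.194 (mA19d#7).

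All 10 members are named, Atrx is given as the targeted gene, and of each list up to 3 genes that rose and 3 that fell. The pattern was compared for Tubb3 and for the alpha and beta member of widest range, passing over clone-type symbols. Members and lists were chosen with earlier results of these data known. Some genes and sequences that these rules would name are not reported here. Gene structures are from GENCODE M21, promoters from RefSeq (8 of 10 members matched).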

Additional observations from a re-analysis of the deposited data

How the results depend on the processing

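Alternatives were pseudocounts of 0.1 and 0.5 or none, no filter or one of 5 TPM, limma without trend, with robust estimation or with 1 weight per group, median-of-ratios factors, the compared groups alone, the line as a replicate block, and each library and line left out. For differentiation against proliferation in the control lines, 2 members passed (706 genes in all). The count was 3 with a filter of 5 TPM (Tubb6 added, 743 genes in all). It was 5 with 1 weight per group (2984 genes) and 8 with those groups fitted alone (2805 genes). Without the differentiated library or the line labelled mA19d#7, 1450 and 1328 genes passed in all. With a library or line left out the count ranged from 0 to 4. It was 0 without the first control library in proliferation medium, either control library in differentiation medium or either control line, 1 without the second control library of proliferating cells, and 4 without the library labelled mA19d#7 in differentiation medium or without that line. For Atrx-deleted against control lines in differentiation medium, 0 members passed, and the count ranged from 0 to 1 with a library or line left out. The 1 was Tubb2a, without the library or the line labelled mA19d#7, where 939 and 832 genes passed in all, against 452 in the main fit. In the other 3 comparisons the count was 0 under every alternative run. With the line as a fixed replicate block the control count stayed at 2 (limma adjusted p = 0.0390 for Tubb2a and 0.0281 for Tuba4a, 487 genes in all). As a random replicate block it was 3, with Tubb6 (827 genes in all). The block changed no other call. No interaction could be fitted from fewer than the 4 groups, and the block bears on comparisons of media alone.

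A direction changed only with a library or line left out, for 10 differences that had not passed. In proliferation medium the log2 difference between Atrx-deleted and control lines then ranged from -2.04 to 0.50 for Tubb4a, from -0.46 to 0.18 for Tubb6, from -0.32 to 0.090 for Tuba1a and from -0.051 to 0.38 for Tuba1b. In differentiation medium it ranged from -0.40 to 1.01 for Tubb3. Between media it ranged from -0.43 to 4.9e-06 for Tuba1b in the control lines, and in the Atrx-deleted lines from -1.28 to 0.41 for Tubb3, from -2.75 to 0.95 for Tubb4a, from -0.37 to 0.058 for Tubb5 and from -0.73 to 0.18 for Tubb6. Of the share differences between Atrx-deleted and control lines, 5 of 10 changed sign with some library left out in proliferation medium (Tubb2a, Tubb2b, Tubb4a, Tubb6 and Tuba1c) and 0 of 10 in differentiation medium. The share difference of Tubb3 in differentiation medium ranged from 0.649 to 3.49 percentage points around 1.84. Depth is unknown, so no counting error can be given, and where 1 library is left in a group its spread is taken from the other groups.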
